A study of Rattus norvegicus with 16 samples.

Results

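Transcripts of the amino acid transporter families were followed in the rat epididymis, in its initial segment next to the testis, after the supply of testicular fluid was tied off. The families were taken by gene symbol, as the genes of the platform annotation named Slc1a, Slc3a, Slc6a, Slc7a, Slc36a, Slc38a or Slc43a followed by a number. This gave 53 genes of the 14217 that had 1 symbol on the array. Each gene was read from 1 probe set, the one with the highest mean over the 16 arrays. In 41 of the 53 genes there was no other probe set, and 12 had several. The symbol decided membership and no measured change did. The Slc6 family also carries neurotransmitters, taurine and creatine, and 1 member, Slc7a6os, is named only for lying opposite Slc7a6 and is not known as a carrier.

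Animals were adult male Sprague-Dawley rats of 275 to 450 g. On one side the efferent ducts, which carry fluid and sperm from the testis, were ligated, and the opposite epididymis of that animal had a sham operation. Tissue of the most proximal initial segment was taken 6, 12 or 18 h after ligation, and each of the 4 groups (sham, 6 h, 12 h, 18 h) had 4 arrays. A single sham group served all 3 times, so the comparisons with sham share 4 arrays. The titles of the sham arrays name no time after surgery, so change over time without ligation cannot be followed. Replicates are labelled biological without a number being tied to an animal, so p-values measure the spread between these arrays. In bulk tissue, fewer cells of a type and less RNA per cell cannot be told apart.

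Amino acid carriers move their substrates across the plasma membrane by different routes. Slc1 carriers take up acidic or small neutral amino acids with sodium, and Slc6 carriers use sodium and chloride. Most Slc7 carriers are exchangers, the light chains that need a heavy chain, Slc3a1 or Slc3a2, to reach the membrane. Slc36 carriers are coupled to protons, Slc38 carriers take up glutamine and other small neutral amino acids with sodium, and Slc43 carriers let large neutral amino acids pass down their gradient. In the initial segment, gamma-glutamyl transferases split glutathione in the lumen, which yields glutamate and a cysteine-containing dipeptide.

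Values are log2 intensities, and each change is given as one group's mean minus another's ± SE on that scale, from 4 arrays per group. A probe set was tested if it reached 5 in at least 4 of the 16 arrays, and a gene counts as called where limma's adjusted p was under 0.05. A mean under 5 cannot be separated from background. A change to or from such a mean is therefore a lower bound, and between a pair of such means no change is given. By this rule 22 of the 53 genes were tested. They were 2 of 6 Slc1 genes, 2 of 2 Slc3 genes, 4 of 16 Slc6 genes, 8 of 15 Slc7 genes, 2 of 3 Slc36 genes, 3 of 9 Slc38 genes and 1 of 2 Slc43 genes. Of the 22, 16 lay at or above 5 on all 16 arrays. For 3 of these, the probe set gave 1 identical value on several arrays, in every group: 5.75 on 10 arrays for Slc6a20a, 5.92 on 8 for Slc7a6 and 8.07 on 5 for Slc7a4. The small spread of these 3 probe sets is therefore not read as a steady level.

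The other 31 genes were not tested, and 29 of them were below 5 on every array. They were Slc1a2, Slc1a3, Slc1a4, Slc1a6, Slc6a2, Slc6a3, Slc6a4, Slc6a5, Slc6a7, Slc6a11, Slc6a13, Slc6a14, Slc6a15, Slc6a17, Slc6a18, Slc6a20b, Slc7a2, Slc7a3, Slc7a9, Slc7a10, Slc7a12, Slc7a13, Slc7a14, Slc36a3, Slc38a1, Slc38a3, Slc38a4, Slc38a6, Slc38a7, Slc38a9 and Slc43a1. The exceptions were Slc1a3, which reached 5 on 3 arrays and 6.19 at most, and Slc7a9, which reached it on 2 arrays and 6.41 at most. For 18 of the 31, every array lay within 0.1 of the lowest value in the table. A low value says only that this probe set gave no signal above the floor.

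The arrays differed by replicate number in a way the groups do not explain. Beside the group effects, limma called 6 of the 22 transporter genes as different between replicates 3 and 4 and replicates 1 and 2, where 34.6% of all tested genes were called (19.8% higher and 14.8% lower in replicates 3 and 4). Slc7a5 was higher in replicates 3 and 4 by 1.19 and Slc3a2 by 0.51. Slc6a6 was lower there (-0.76), as were Slc43a2 (-0.42), Slc7a8 (-0.39) and Slc7a6os (-0.23). Fibroblast markers were lower in replicates 3 and 4 (8 of 9 called, median -1.65), and so were macrophage markers (7 of 9 called, median -0.97). The labels name no batch, so changes are followed, where it matters, by the pair of values within replicates 1 and 2 (first) and replicates 3 and 4 (second). Markers of the principal cells, the main cell of this epithelium, were all tested (10 of 10), and their mean level was 10.6 to 11.3 on every array. Single markers differed between the replicate pairs, with 3 higher and 1 lower in replicates 3 and 4 (median -0.015). The mean is therefore not read as a steady share of principal cells.

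Calls among the transporter genes were made at 12 h and 18 h and went both ways. At 6 h none of the 22 genes was called by limma in either direction, and 0.36% of all tested genes were called (0.168% higher and 0.192% lower). At 12 h, 1 transporter gene rose and 2 fell, where 4.39% of all tested genes rose and 4.36% fell (8.75% in all). At 18 h, 3 rose and 2 fell, where 5.99% rose and 5.12% fell (11.1% in all). Slc7a8 rose and Slc1a1 and Slc6a9 fell at both times, and Slc7a11 and Slc38a2 were called at 18 h. The median change of the 22 genes was -0.023, 0.0072 and 0.078 at 6, 12 and 18 h, beside 0.020, 0.032 and 0.030 over all tested genes. The median size of change without its sign was 0.16, 0.27 and 0.44, beside 0.11, 0.17 and 0.18. These medians take measured values, bounds included.

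**Figure D1:**
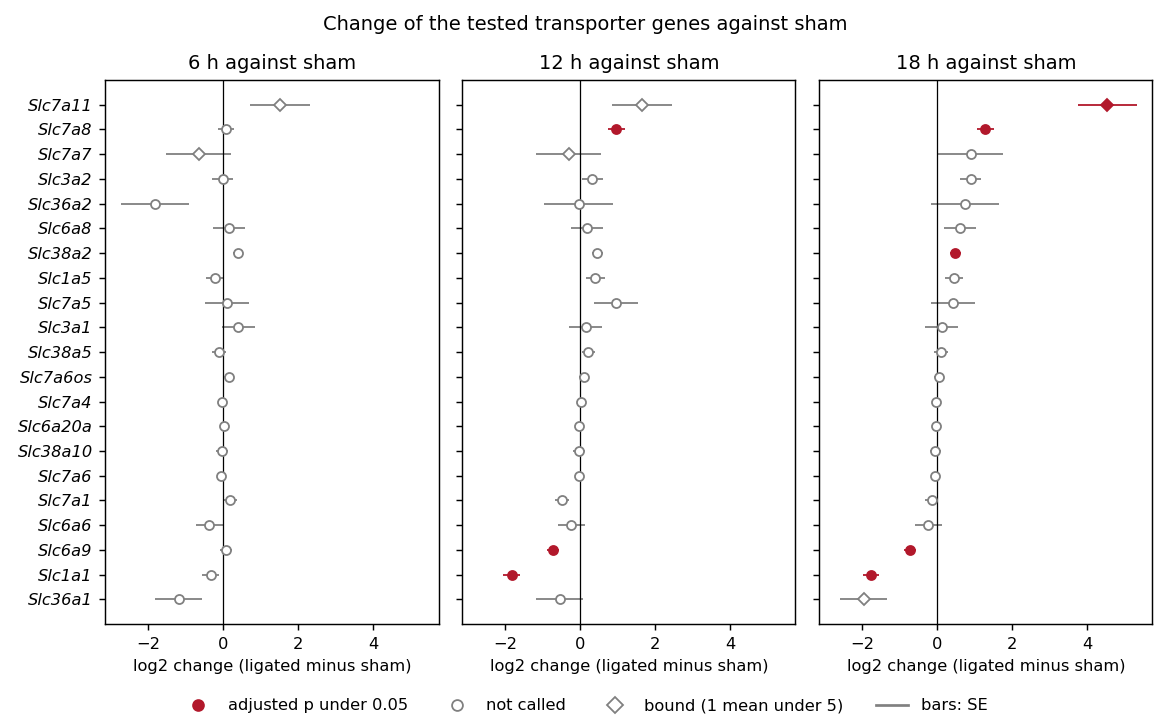
Log2 change against sham of 21 tested transporter genes at 6, 12 and 18 h (x axis, difference of means of 4 arrays each; bars, SE), ordered by the change at 18 h. Filled symbols mark an adjusted p under 0.05 and diamonds mark bounds, with 1 group mean under 5; Slc43a2 is left out because all its group means were under 5. No gene is filled at 6 h, and at 18 h Slc7a11 lies farthest to the right at 4.55.

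Slc1a1, a high-affinity carrier of glutamate and aspartate that also takes up cysteine, had the largest fall among the called genes. Its sham arrays stood at 12.74, 12.69, 12.72 and 12.72. At 6 h they read 12.13, 12.67, 12.33 and 12.44, at 12 h 10.09, 11.29, 11.17 and 11.01, and at 18 h 10.81, 10.90, 11.35 and 10.80. The sham arrays agree closely, and on this probe set every ligated array lay below all of them. The lowest single array was replicate 1 at 12 h. The change was -0.33 ± 0.22 at 6 h, which was not called (adjusted p = 1.0). At 12 h it was -1.83 ± 0.22, 3.55-fold lower, with an adjusted p of 0.000148, and within the replicate pairs it was -2.02 and -1.63. At 18 h it was -1.75 ± 0.22, 3.37-fold lower, with an adjusted p of 0.000142, and within the pairs -1.86 and -1.64. The step between 6 h and 12 h passed the test itself. Slc1a1 was lower at 12 h than at 6 h by limma (-1.50, adjusted p = 0.0017), and 18 h against 12 h gave 0.07 (adjusted p = 0.996). A second tested probe set of Slc1a1 changed by -1.70 at 12 h (adjusted p = 0.00111) and by -1.57 at 18 h (adjusted p = 0.00154). At 6 h its change was -0.24, which was not called, and its 6 h arrays overlapped those of sham.

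Sperm transcripts were low on most 6 h arrays. All 3 tested sperm markers of 6 fell at 12 h and 18 h and 1 fell at 6 h, with medians of -3.99, -4.05 and -4.63 at 6, 12 and 18 h. Of all tested genes, 0.192%, 4.36% and 5.12% fell at these times. The 3 markers met the minimum mainly through the sham arrays, so the filter favoured falls among them and the count is a description. Their means after ligation were mostly under 5, so the medians are bounds. The mean level of the 6 was 4.59 to 6.59 in sham, 2.75 to 4.89 at 6 h, 2.75 to 3.71 at 12 h and 2.75 to 3.04 at 18 h, and Prm2, Tnp1 and Tnp2 were under 5 on every array. Prm1, which packs sperm DNA, read 9.65, 7.02, 9.15 and 9.82 in sham and 4.61, 4.00, 4.93 and 7.86 at 6 h. On 3 of the 4 arrays of 6 h it was under 5. Slc1a1 was between 12.13 and 12.67 on all 4, which was below every sham array. The part of sperm RNA in the Slc1a1 values was not tested. Prm1 lay between 3.98 and 5.74 at 12 h and 18 h.

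Slc1a5, a carrier that brings glutamine into many cell types, was not called. It lay between 8.32 and 8.83 in sham and between 8.77 and 9.62 at 18 h, and the groups overlap. Its change at 18 h was 0.45 ± 0.25 (adjusted p = 0.317). At 12 h replicates 1 and 2 stood at 9.23 and 9.53 and replicates 3 and 4 at 8.32 and 8.85. For 12 h against 6 h its change was 0.62 (adjusted p = 0.194), and without replicate 3 of 12 h it was 0.84 (adjusted p = 0.049).

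Slc6a9, a glycine transporter, fell by less. Its sham arrays read 7.95, 8.20, 7.996 and 8.24, and those of 6 h read 8.09, 8.13, 8.50 and 7.97. At 12 h they were 7.10, 7.40, 7.78 and 7.21, and at 18 h 7.64, 7.43, 7.34 and 7.15. Sham and 6 h overlap, and every array of 12 h and 18 h lay below all 8 of them. The change was -0.72 ± 0.16 at 12 h (adjusted p = 0.0121; -0.82 and -0.62 within the pairs) and -0.71 ± 0.16 at 18 h (adjusted p = 0.0109; -0.54 and -0.87). Both times were also lower than 6 h, by -0.80 (adjusted p = 0.0128) and -0.78 (adjusted p = 0.00787). These calls did not hold under every setting. For 12 h against 6 h the adjusted p was 0.0659 with only those groups in the fit, 0.235 with replicates 3 and 4 alone and 0.0977 without replicates 1 and 2 of 12 h. Against sham, with only the groups compared in the fit, limma's adjusted p at 12 h was 0.0565. With the arrays in 3 sets as a block it was 0.059 at 12 h and 0.0609 at 18 h. The sets were replicates 1 and 2, replicates 3 and 4 of sham and 6 h, and replicates 3 and 4 of 12 h and 18 h. Within replicates 3 and 4 this block takes up the difference of 12 h or 18 h from sham or 6 h. Such changes then rest mainly on replicates 1 and 2. A second probe set changed by -1.22 at 12 h (adjusted p = 0.165) and -1.64 at 18 h (adjusted p = 0.0447).

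The other 3 tested Slc6 genes were not called in any comparison. Slc6a6, the taurine transporter, lay between 4.97 and 6.52 over the 16 arrays, and its change at 18 h was -0.23 ± 0.36 (adjusted p = 0.799). Slc6a8, the creatine transporter, lay between 6.43 and 8.65, with a change of 0.61 ± 0.42 at 18 h (adjusted p = 0.455). Slc6a20a, a proline carrier, was one of the probe sets with a repeated value and lay between 5.67 and 6.02. Slc6a20b lies next to Slc6a20a on chromosome 8 in the RefSeq gene order (GRCr8) and was below the minimum. Slc6a19 was not analysed here.

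Slc7a11, the light chain that exports glutamate in exchange for cystine, had the largest rise. Its sham arrays read 4.59, 4.40, 4.90 and 4.70, all under the level told from background. At 6 h they read 6.01, 5.43, 6.83 and 6.40, at 12 h 4.41, 4.49, 8.96 and 7.30, and at 18 h 9.01, 9.58, 10.01 and 8.18. Every array of 6 h and of 18 h lay above all sham arrays, whereas at 12 h replicates 1 and 2 were at the sham level and replicates 3 and 4 were far above it. Slc7a11 met the minimum for a test only through ligated arrays, so the filter favoured a rise and its calls are a description. At 18 h the change was at least 4.55 ± 0.80, or at least 23.4-fold, with an adjusted p of 0.00194, and within the pairs it was 4.80 and 4.29. At 6 h it was at least 1.52 ± 0.80 and was not called (adjusted p = 0.999). At 12 h it was at least 1.64 ± 0.80 (adjusted p = 0.278), with -0.04 and 3.33 within the pairs. The 18 h arrays were also above those of 6 h, by 3.03 (adjusted p = 0.0315), but that call held in only 1 of 8 fits that left out an array. For 18 h against 12 h the change of 2.90 was not called (adjusted p = 0.363), and without replicate 3 of 12 h it was 3.79 (adjusted p = 0.0342).

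The 12 h arrays with low Slc7a11 were those with raised S100a8 and S100a9, both from the neutrophil marker list. S100a9 read 8.47 and 10.36 on replicates 1 and 2 of 12 h and between 2.91 and 4.61 on the other 14 arrays. S100a8 read 4.92 and 8.75 there and at most 2.39 elsewhere. Cxcr2 and Csf3r, receptors on the same list, were under 5 on every array. Cxcr2 lay at 2.22 throughout, and Csf3r was highest on replicate 2 of 12 h, at 3.25. Such values cannot be separated from background and are not read either way. None of the 4 matched neutrophil markers met the minimum for a test. The mean level of the 4 was 2.44 to 2.51 in sham, 2.39 to 2.63 at 6 h, 2.44 to 6.15 at 12 h and 2.44 to 2.86 at 18 h. Their part in the result was not tested. Without these arrays, Slc7a11 at 12 h was at least 3.48 above sham (adjusted p = 0.00245). This value is a description, since the arrays left out are also the lowest in Slc7a11. Without them Slc1a1 was still called at 12 h (-1.63, adjusted p = 0.000206), and Slc6a9 (-0.60, adjusted p = 0.0963) and Slc7a8 (0.68, adjusted p = 0.134) were not. That made 2 of 22 genes called at 12 h against sham, beside 5.64% of all tested probe sets, 1 for 12 h against 6 h, beside 2.13%, and 0 for 18 h against 12 h, beside 0.00746%.

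**Figure D2:**
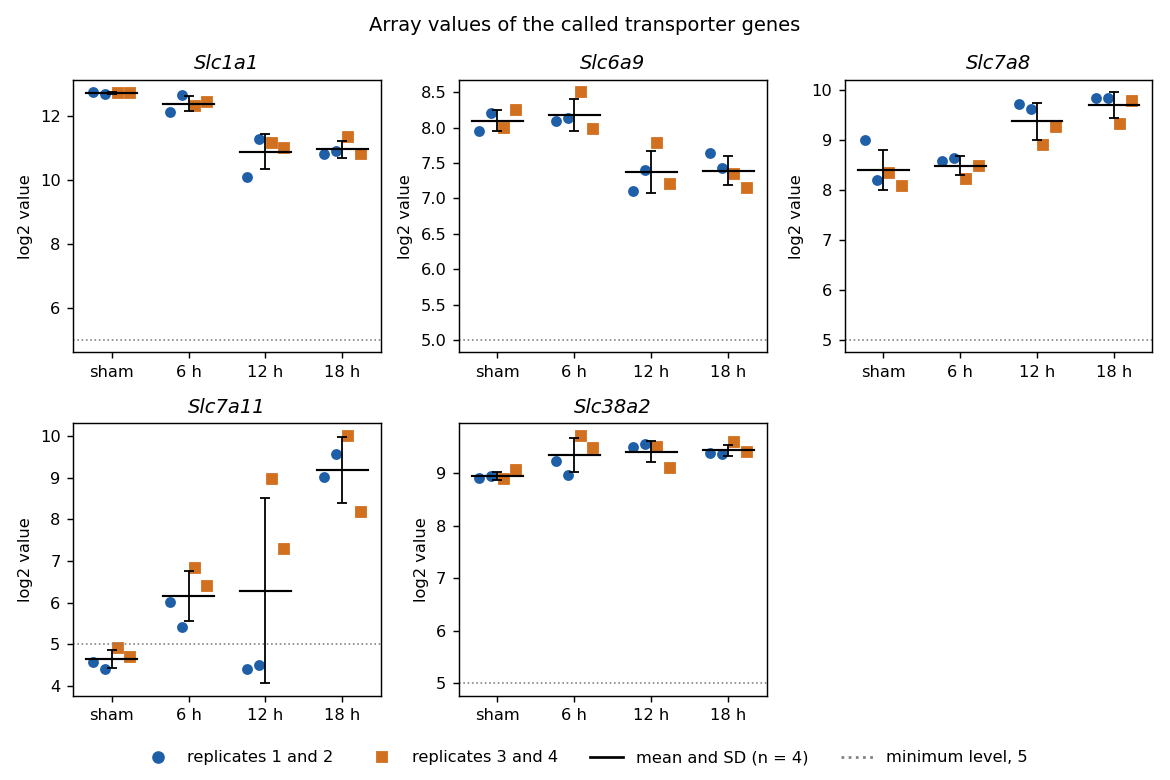
Log2 values of the 5 called transporter genes on each array (y axis, one scale per gene) in sham and at 6, 12 and 18 h (x axis). Circles are replicates 1 and 2, squares replicates 3 and 4, lines the mean and SD of 4 arrays, and the dotted line the minimum level of 5. At 12 h the Slc7a11 arrays divide into 4.41 and 4.49 against 8.96 and 7.30, while for Slc1a1 all 4 lie below sham.

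Slc7a8, a light chain for neutral amino acids of all sizes, rose at 12 h and 18 h. Its sham arrays read 8.99, 8.21, 8.33 and 8.08, and those of 6 h 8.58, 8.65, 8.22 and 8.48. At 12 h they read 9.72, 9.61, 8.89 and 9.27, and at 18 h 9.85, 9.85, 9.31 and 9.78. All 18 h arrays were above all sham arrays. At 12 h the groups overlapped, because sham replicate 1 lay above 12 h replicate 3. The change was 0.97 ± 0.22 at 12 h (1.96-fold, adjusted p = 0.0128; 1.07 and 0.88 within the pairs) and 1.29 ± 0.22 at 18 h (2.45-fold, adjusted p = 0.00143; 1.25 and 1.34). Against 6 h it was 0.89 at 12 h (adjusted p = 0.0335) and 1.21 at 18 h (adjusted p = 0.0034). The call for 12 h against 6 h held in only 1 of 8 fits that left out an array. With only the groups compared in the fit, the call for 12 h against sham was lost (adjusted p = 0.0839).

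Slc3a2, the heavy chain that carries Slc7a8, Slc7a11 and most other Slc7 light chains to the membrane, was not called in the fit without blocks. Its sham arrays read 9.99, 9.56, 10.11 and 10.02 and its 18 h arrays 10.61, 10.69, 11.27 and 10.70. All 18 h arrays were above all sham arrays, and the change was 0.90 ± 0.28 (adjusted p = 0.0614; 0.88 and 0.92 within the pairs). Slc3a2 was called with only the groups compared in the fit (adjusted p = 0.0276) and with replicates 1 and 2 against 3 and 4 as a block (adjusted p = 0.0122). With each replicate number as a block, limma's adjusted p was 0.00466, so its call depends on the block. For 18 h against 6 h the change was 0.91 (adjusted p = 0.0668), and without replicate 3 of 6 h it was 1.09 (adjusted p = 0.0481). At 12 h only replicate 3 was high, at 11.12, and the other 3 arrays lay between 9.95 and 9.97. Slc3a1, the other heavy chain, had a change of 0.13 ± 0.44 at 18 h (adjusted p = 0.921), and its sham arrays ran from 6.19 to 8.73.

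The remaining light chains and the cationic carriers were not called in the fit without blocks, but for Slc7a5 and Slc7a1 a block changed the call. Slc7a5, the light chain for large neutral amino acids such as leucine, was split by replicate number, most plainly in sham and at 6 h. It read 6.91, 6.27, 7.62 and 7.93 in sham, 6.17, 5.86, 8.37 and 8.70 at 6 h, 8.46, 7.85, 8.18 and 8.06 at 12 h and 7.11, 7.03, 7.84 and 8.47 at 18 h. Its change at 12 h was 0.95 ± 0.59 (adjusted p = 0.427), being 1.57 within replicates 1 and 2 and 0.34 within replicates 3 and 4. With the arrays in 3 sets as a block it was 1.62 (adjusted p = 0.019), and 12 h against 6 h was 1.53 (adjusted p = 0.0362), beside 0.86 without it (adjusted p = 0.509). Changes from sham or 6 h to 12 h with the 3-set block rest mainly on replicates 1 and 2, since it takes up these differences within replicates 3 and 4. Slc7a1, a carrier of arginine and lysine, lay between 10.56 and 11.04 in sham and at 9.86, 10.01, 10.74 and 10.74 at 12 h. For 12 h against 6 h its change was -0.67 ± 0.18 (adjusted p = 0.0529), being -1.11 within replicates 1 and 2 and -0.22 within replicates 3 and 4. It was called with replicates 1 and 2 against 3 and 4 as a block (adjusted p = 0.0279) and with the 3-set block (-0.87, adjusted p = 0.0213), as well as with another prior, a minimum level of 7 or quantile normalization again (adjusted p of 0.0406 to 0.0466). Leaving out replicate 3 or replicate 4 of 12 h gave an adjusted p of 0.023 or 0.0279. Against sham at 12 h, Slc7a1 changed by -0.48 (adjusted p = 0.139), and by -0.69 with the 3-set block (adjusted p = 0.044). A second tested probe set of Slc7a1 read 10.29, 10.18, 9.71 and 9.48 at 6 h. At 12 h it read 8.93, 9.19, 9.68 and 10.05, so replicate 4 was higher there than at 6 h. Slc7a7, which exchanges cationic for neutral amino acids, lay between 3.53 and 7.72, and no group kept its arrays together. Slc7a4 (7.85 to 8.27) and Slc7a6 (5.81 to 6.23) were the other probe sets with a repeated value. Slc7a6os, the neighbour of Slc7a6 on chromosome 19, lay between 7.06 and 7.76.

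**Figure D3:**
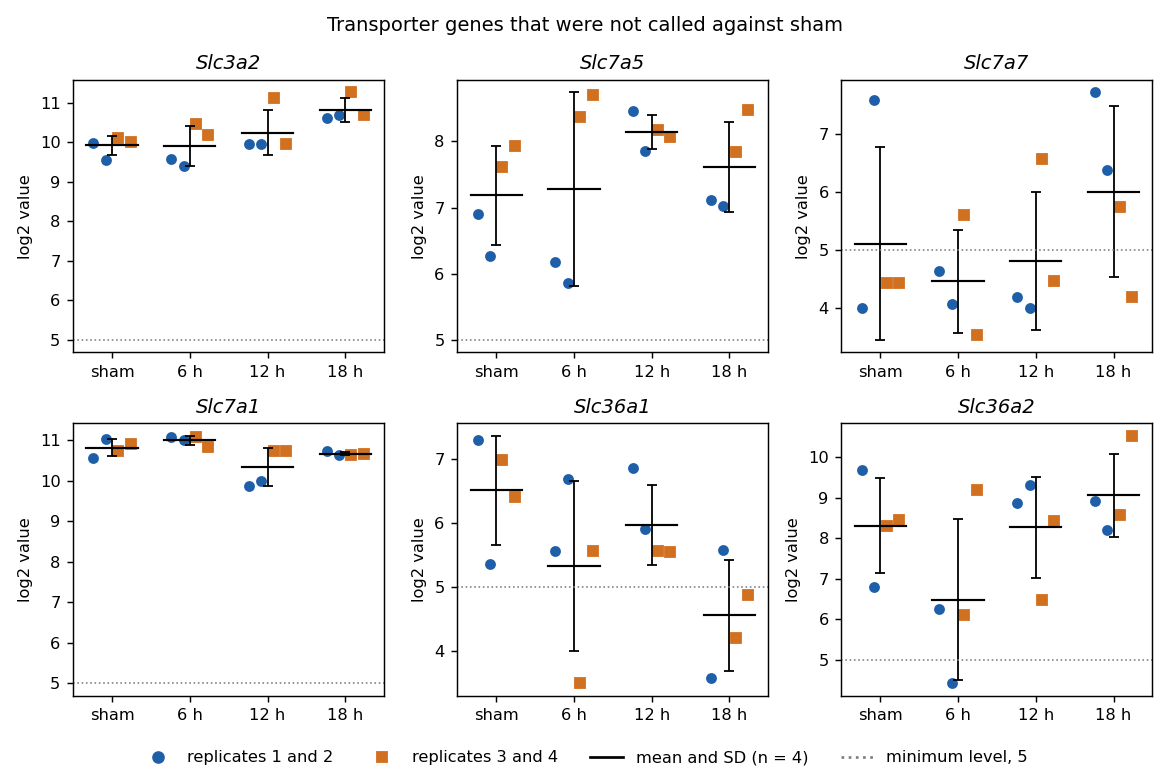
Log2 values on each array (y axis, one scale per gene) of 6 transporter genes that were not called against sham, by group (x axis); circles are replicates 1 and 2, squares replicates 3 and 4, lines the mean and SD of 4 arrays, and the dotted line the minimum level of 5. Slc3a2 lies between 10.61 and 11.27 at 18 h, above all sham arrays, and Slc7a5 is divided by replicate number in sham and at 6 h.

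Slc38a2, a sodium-coupled carrier of glutamine and alanine, rose narrowly at 18 h. Its arrays read 8.90, 8.95, 8.89 and 9.05 in sham, 9.22, 8.97, 9.71 and 9.48 at 6 h, 9.49, 9.54, 9.50 and 9.10 at 12 h and 9.38, 9.36, 9.59 and 9.40 at 18 h. Sham arrays were tightly grouped, and those of 12 h and 18 h all lay above them. The change was 0.40 ± 0.14 at 6 h (adjusted p = 0.600), 0.46 ± 0.14 at 12 h (adjusted p = 0.0699) and 0.49 ± 0.14 at 18 h (adjusted p = 0.0462; 0.45 and 0.53 within the pairs). The 18 h call was lost in all 8 fits that left out an array, where the adjusted p was 0.0695 to 0.127, and with the arrays centred on their medians (adjusted p = 0.0534). At 12 h, leaving out replicate 4 gave a call (0.56, adjusted p = 0.0336). Slc38a5, also a glutamine carrier, lay between 12.74 and 13.78 over all arrays, with a change of 0.10 ± 0.18 at 18 h (adjusted p = 0.814). Slc38a10 lay between 8.52 and 9.24. Slc38a1 and Slc38a4, which flank Slc38a2 on chromosome 7 in the RefSeq gene order, were below the minimum.

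The proton-coupled carriers were not called. Slc36a1, which carries small amino acids out of lysosomes and across the apical membrane of some epithelia, read 7.29, 5.36, 6.98 and 6.41 in sham and 3.57, 5.57, 4.19 and 4.87 at 18 h. The groups overlap, since sham replicate 2 lay below 18 h replicate 2. The change was -1.96 ± 0.62 or lower (adjusted p = 0.0609; -1.75 and -2.16 within the pairs), and leaving out replicate 2 of sham or of 18 h gave a call (adjusted p = 0.0405 and 0.0475). Slc36a2, its neighbour on chromosome 10, read 9.67, 6.81, 8.30 and 8.46 in sham and 6.25, 4.42, 6.10 and 9.18 at 6 h, with a change of -1.82 ± 0.91 (adjusted p = 0.969). Its high 6 h array, replicate 4, was also the 6 h array on which Prm1 stood at 7.86. At 18 h Slc36a2 read 8.93, 8.19, 8.58 and 10.53 while Prm1 was between 4.02 and 4.88. For 18 h against 6 h the change was 2.57 (adjusted p = 0.106), and without replicate 4 of 6 h it was 3.47 (adjusted p = 0.0198). The part of sperm RNA in these values was not tested. Slc43a2, a carrier of large neutral amino acids, lay between 4.33 and 5.28 with every group mean under 5.

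Between times, the same genes made up the calls. For 12 h against 6 h, Slc7a8 was higher and Slc1a1 and Slc6a9 were lower, where 2.07% of all tested genes were higher and 2.66% lower (4.73% in all). For 18 h against 6 h, Slc7a8 and Slc7a11 were higher and Slc1a1 and Slc6a9 lower, where 4.34% were higher and 4.31% lower (8.65% in all). For 18 h against 12 h limma called 0 of the 22 genes and 0.0% of all tested genes. Groups that did not overlap with sham can also be counted. At 6 h all ligated arrays were above all sham arrays for 1 transporter gene (Slc7a11), beside 3.09% of all tested genes, and below them for 1 (Slc1a1), beside 1.75%. At 12 h they were above for 1 (Slc38a2), beside 7.23%, and below for 2 (Slc1a1 and Slc6a9), beside 5.72%. At 18 h they were above for 4 (Slc7a11, Slc7a8, Slc3a2 and Slc38a2), beside 8.98%, and below for 2 (Slc1a1 and Slc6a9), beside 6.68%.

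Genes that respond to a shortage of amino acids through the transcription factor ATF4 were read beside Slc7a11, which is known as a target of that factor. The list held 24 tested genes, without transporters, and 1 was called at 6 h (Ddit4, 0.94), 5 at 12 h and 9 at 18 h in the upward direction, where 0.168%, 4.39% and 5.99% of all tested genes were called higher. At 18 h 1 fell, Vldlr (-0.53), where 5.12% of all tested genes fell. The median change of the list was 0.20, 0.48 and 0.66 at 6, 12 and 18 h, beside 0.020, 0.032 and 0.030 over all tested genes. The largest called changes at 18 h were those of Atf3, a stress-induced transcription factor (at least 3.69, adjusted p = 0.0067), Chac1, an enzyme that breaks down glutathione (at least 2.88, adjusted p = 0.0498), Ddit3, a transcription factor of the stress response (2.00, adjusted p = 0.0285), and Mthfd2, a mitochondrial folate enzyme (1.85, adjusted p = 0.00246). Atf3 reached 5 only on the arrays of 18 h and on replicate 3 of 12 h. Atf3 was tested only through its high arrays, and Chac1, under 5 on every sham array, only through ligated arrays. Their calls are therefore no independent support. Asns, asparagine synthetase, was chosen after its values were seen and changed by 1.23 (adjusted p = 0.0347).

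Within 12 h, 4 of these 5 genes were highest on the array where Slc7a11 was highest, replicate 3. There Chac1 read 8.36, against 3.92, 4.16 and 5.24 on replicates 1, 2 and 4. Atf3 read 6.90 there and at most 2.45 on the others, Ddit3 read 9.09 against 6.55, 6.19 and 7.02, and Asns read 10.54 against 8.97, 9.24 and 9.58. Mthfd2 did not follow, at 8.61 on replicate 3 and between 8.93 and 8.99 on the others. At 6 h replicate 3 was again the highest for Slc7a11 (6.83), Chac1 (6.97), Ddit3 (8.15) and Asns (9.65), whereas Mthfd2 was highest on replicate 4 (8.97 against 8.46) and Atf3 read 2.45 on all 4 arrays. At 18 h replicate 3 was the highest for Slc7a11, Atf3, Ddit3 and Asns, and replicate 2 for Chac1 (8.27) and Mthfd2 (9.28). These likenesses were noticed in the values and are a description over 4 arrays per time.

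**Figure D4:**
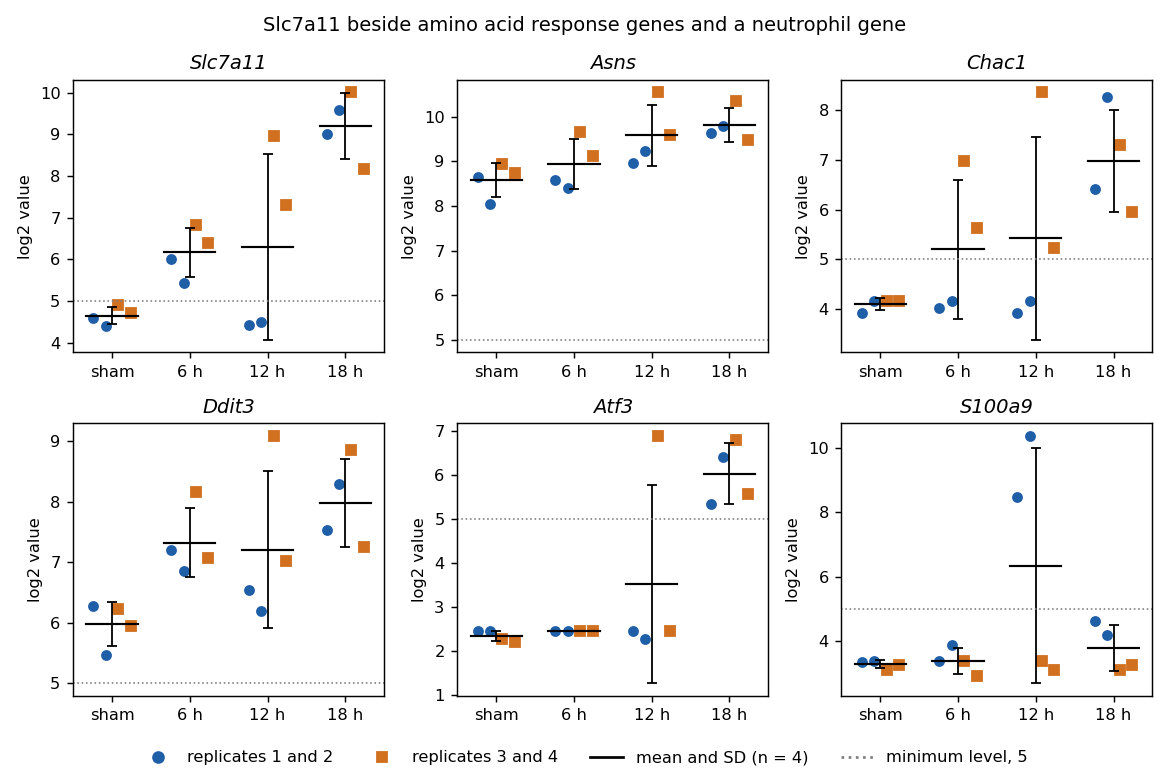
Log2 values on each array (y axis, one scale per gene) of Slc7a11, 4 genes of the amino acid response and S100a9 of the neutrophil marker list, by group (x axis). Circles are replicates 1 and 2, squares replicates 3 and 4, and lines the mean and SD of 4 arrays. At 12 h replicate 3 is the highest array of Slc7a11 (8.96), Asns, Chac1, Ddit3 and Atf3, and replicates 1 and 2 are the high arrays of S100a9 (8.47 and 10.36).

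Among enzymes that load amino acids onto tRNA, several rose at 18 h. Of 17 tested synthetases, 0 were called at 6 h by limma, 1 rose (Wars1) and 1 fell (Hars1, -0.56) at 12 h, and 7 rose and 0 fell at 18 h, with a median of 0.47 at 18 h. Of all tested genes, 4.39% rose and 4.36% fell at 12 h, and 5.99% rose and 5.12% fell at 18 h. The largest were Wars1 (1.22, adjusted p = 0.00155), Yars1 (0.77), Gars1 (0.63) and Iars1 (0.61), for tryptophan, tyrosine, glycine and isoleucine.

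In the lists of glutathione genes and of enzymes of glutamine, glutamate and related amino acids, the calls at 18 h were falls. Of all tested genes, 5.99% rose and 5.12% fell at that time (4.39% and 4.36% at 12 h). In the glutathione list of 14 tested genes, 1 rose (Mat2a, 0.39) and 2 fell at 12 h, and 0 rose and 3 fell at 18 h. The falls at 18 h were those of the gamma-glutamyl transferases Ggt5 (-2.30, adjusted p = 0.00079) and Ggt1 (-0.76, adjusted p = 0.00941) and of glutathione synthetase, Gss (-0.62, adjusted p = 0.0468). Among 14 tested enzymes of glutamine, glutamate and related amino acids, 1 rose (Glul, glutamine synthetase, 0.42) and 2 fell at 12 h, and 0 rose and 4 fell at 18 h. Those were Aldh4a1, which forms glutamate from proline (-1.43, adjusted p = 0.00168), Arg2, an arginase (-1.28, adjusted p = 0.0206), Abat, which degrades GABA (-0.95, adjusted p = 0.00796), and Asl, which forms arginine (-0.58, adjusted p = 0.032). The medians at 18 h were -0.058 and -0.073.

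Carriers of other families, genes of amino acid sensing and genes of volume control are set beside 8.75% of all tested genes called at 12 h and 11.1% at 18 h. Of 13 other carriers tested, 2 rose at 12 h, Slc16a10 (1.66, adjusted p = 0.0221), which lets aromatic amino acids pass, and Slc25a22 (0.65), a mitochondrial glutamate carrier. At 18 h Slc25a22 was again higher (0.57) and Slc17a5, a lysosomal sialic acid carrier, was lower (-0.74). For Slc16a10 the change at 18 h was 1.28 (adjusted p = 0.0603). Of 24 tested genes of mTORC1 and amino acid sensing, Nprl3, part of a complex that restrains mTORC1, rose at 12 h (0.48, adjusted p = 0.0259), and at 6 h and 18 h limma called 0. The smallest p at 18 h was that of Rheb, the activator of mTORC1 (-0.28, adjusted p = 0.0969). Of 9 tested genes of osmolyte and cell volume control, 1 rose (Akr1b1, 0.52) and 1 fell (Clcn3, -1.13) at 12 h. At 18 h Sgk1 (0.68) and Lrrc8a (0.63) rose and Clcn3 fell (-0.91). Sgk1 is a kinase that acts on transport proteins, Lrrc8a is a subunit of the volume-regulated anion channel, and Clcn3 is an endosomal chloride transporter.

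Start-site sequences were looked at because Slc7a11, Slc7a8 and Slc38a2 rose at 18 h while Slc6a9 fell. Bases before the annotated gene start were taken from RefSeq (build GRCr8), which had an entry for 41 of the 53 genes and for 4 of the 5 called ones. Each run is the 250 bases upstream of the start on the gene's own strand, at chr2:136668265-136668514 for Slc7a11 (minus strand), chr15:32212716-32212965 for Slc7a8 (minus strand), chr7:129742620-129742869 for Slc38a2 (minus strand) and chr5:136659826-136660075 for Slc6a9 (plus strand). Capitals mark a match to the antioxidant response element letters TGACNNNGC on either strand.
Slc7a11: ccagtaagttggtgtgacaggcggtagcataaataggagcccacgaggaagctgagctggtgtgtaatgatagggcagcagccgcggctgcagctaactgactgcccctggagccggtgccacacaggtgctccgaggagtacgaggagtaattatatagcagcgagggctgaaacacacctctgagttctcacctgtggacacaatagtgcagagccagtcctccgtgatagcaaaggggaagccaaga
Slc7a8: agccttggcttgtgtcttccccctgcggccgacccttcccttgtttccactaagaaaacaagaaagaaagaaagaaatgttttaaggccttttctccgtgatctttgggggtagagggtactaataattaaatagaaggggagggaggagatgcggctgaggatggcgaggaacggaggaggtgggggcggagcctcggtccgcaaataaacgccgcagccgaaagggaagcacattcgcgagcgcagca
Slc38a2: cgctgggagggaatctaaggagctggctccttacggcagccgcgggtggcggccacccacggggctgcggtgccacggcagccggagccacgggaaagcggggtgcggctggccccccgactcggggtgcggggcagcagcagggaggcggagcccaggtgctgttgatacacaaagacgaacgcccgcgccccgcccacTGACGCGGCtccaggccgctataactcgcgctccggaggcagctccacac
Slc6a9: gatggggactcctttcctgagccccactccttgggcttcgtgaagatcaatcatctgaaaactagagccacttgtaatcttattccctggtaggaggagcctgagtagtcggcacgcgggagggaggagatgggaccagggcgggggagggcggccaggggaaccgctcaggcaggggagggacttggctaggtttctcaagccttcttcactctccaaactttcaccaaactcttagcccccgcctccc
Of these runs, that of Slc38a2 held a match, and 10.1% of 33469 upstream runs of this length in the table held one. The other letters searched on both strands were TGATGNAA, the composite site of C/EBP and ATF factors (3.4% of all runs), TGACGTCA, the cAMP response element (1.59%), CCGGAAGT, an ETS site (3.1%), and TTCNNNGAA, a STAT site (7.67%), and none of them was in the 4 runs. Among the 41 genes, TGATGNAA was found for Slc1a4, Slc38a1 and Slc7a1, and TGACNNNGC for 8. A match is a string of letters and no measured site, and an absent match says only that the letters are not in this window.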

How the data were processed

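RNA of 16 samples was hybridised to Affymetrix rat arrays, 1 array each. The deposited value table holds log2 values that the authors made with GCRMA, per the submitters' processing notes, which name no version. GCRMA corrects background by probe sequence and normalizes by quantiles, which brings array medians together. Values ran from 2.22 to 15.1, correlations between arrays from 0.882 to 0.986, and no pair of arrays was identical. On each array 41.2% to 41.8% of probe sets reached 5. The number of arrays limits the precision.

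After 57 control probe sets were left out, probe sets at or above 5 in at least 4 arrays were tested (13410 probe sets, 8344 genes). Limma 3.58.1 (lmFit, eBayes; R 4.3.3) fitted 4 group means over all 16 arrays, with Benjamini-Hochberg adjustment over all tested probe sets in each of 6 comparisons; percentages of genes count 1 probe set per gene. The fit was tested on simulated data. Symbols came from the platform annotation, and all 53 Entrez IDs were found in RefSeq. The genes, lists and tests were chosen with earlier results of these data known. Genes called in any comparison and their partners or best-known relatives were named with array values, other tested genes by range, and from each list up to 4 called genes with the largest change at 18 h or else the smallest p. Genes named outside this are those of counts of 5 or fewer, Asns, and the neutrophil and sperm genes. Alternatives were other priors, minimum levels, normalizations, blocks, subsets of replicates, probe set averages and thresholds, and each array left out in turn. Leaving out replicates 1 and 2 of 12 h was chosen after seeing the data.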

Additional observations from a re-analysis of the deposited data

Results flagged for a closer look

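In 12 of 88 groups of 4 arrays, 1 array stood far from the other 3 by Dixon's criterion, where chance gives about 1 in 20. High arrays were those of Slc1a5 at 18 h (replicate 4, 9.62), Slc38a5 in sham (replicate 1, 13.66), Slc7a7 in sham (replicate 2, 7.59), and Slc3a2 at 12 h (replicate 3, 11.12) and at 18 h (replicate 3, 11.27). Replicate 3 of 12 h was also the highest array of Slc7a11. Low arrays were those of Slc38a2 at 12 h (replicate 4, 9.10) and Slc7a8 at 18 h (replicate 3, 9.31). For 2 probe sets with 1 repeated value on 8 or 10 of 16 arrays the gaps are small: Slc6a20a in sham (replicate 2, 5.84) and at 12 h (replicate 2, 5.72) and Slc7a6 at 12 h (replicate 1, 6.05) and 18 h (replicate 2, 5.93). The last was Slc7a6os at 12 h (replicate 1, 7.59).

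Ligated arrays differed between times by a test of the difference itself in 7 cases. With 1 sham group of no named time, a change in the effect of ligation cannot be told from other change over time. For 12 h against 6 h these were Slc1a1 (-1.50), Slc6a9 (-0.80) and Slc7a8 (0.89). For 18 h against 6 h they were Slc1a1 (-1.42), Slc6a9 (-0.78), Slc7a11 (3.03) and Slc7a8 (1.21). The calls of Slc7a8 for 12 h against 6 h and of Slc7a11 for 18 h against 6 h each held in only 1 of 8 fits that left out an array.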

How the results depend on the processing

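The count of called transporter genes was 3 at 12 h, 5 at 18 h, 3 for 12 h against 6 h, 0 for 18 h against 12 h and 4 for 18 h against 6 h, and percentages in parentheses are the share of all tested probe sets called in the same fit (7.86%, 10.2%, 4.28%, 0.0% and 7.88% in these). At 12 h it was 1 with only the groups compared in the fit (3.56%), with replicates 3 and 4 alone (4.27%), at an adjusted p under 0.01 (3.28%) and with a 2-fold minimum (3.59%), and 5 with the 3-set block (8.81%). At 18 h it was 3 with replicates 3 and 4 alone (7.68%), at an adjusted p under 0.01 (4.76%) and with the 2-fold minimum (4.49%). For 12 h against 6 h it was 1 with only those groups in the fit (2.41%), at an adjusted p under 0.01 (1.21%), with the 2-fold minimum (1.94%) and without replicates 1 and 2 of 12 h (2.13%), 0 with replicates 3 and 4 alone (0.858%), and 5 with the 3-set block (5.81%). It was 1 for 18 h against 12 h with replicates 1 and 2 alone (0.82%), and 2 for 18 h against 6 h with replicates 3 and 4 alone (3.43%). Leaving out each array gave 0 to 0 at 6 h, 3 to 4 at 12 h, 4 to 5 at 18 h, 2 to 5 for 12 h against 6 h, 0 to 1 for 18 h against 12 h and 3 to 4 for 18 h against 6 h; the 5 came without replicate 3 of 12 h, which added Slc1a5 and Slc7a1. The cause was not tested.

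Replicate numbers were not used to pair arrays in the main fit, because no label ties a number to an animal. Same-numbered arrays deviated together with correlations of 0.0065 to 0.56, over 0.1 in 23 of 24 pairs. Of 16 arrays, 10 correlated best with their own number. The median correlation was -0.39 between replicates 1 or 2 and 3 or 4. Between different numbers within 1 and 2 or within 3 and 4 it was 0.39. The main fit leaves this shared deviation in its spread. With the replicate block the counts were 0 (0.343%), 3 (12.7%), 6 (16.1%), 4 (8.7%), 0 (0.0149%) and 6 (14.4%) for 6, 12 and 18 h against sham, 12 h against 6 h, 18 h against 12 h and 18 h against 6 h. Of 2142 alternative values of 96 changes of named genes, 2037 kept their side of the threshold, 67 lost the call and 38 gained it. No called value changed sign. Slc1a1 at 12 h and 18 h, and Slc7a8 and Slc7a11 at 18 h, kept their call against sham under each processing alternative run.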
